A study of Mus musculus with 4 samples.

Results

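Weak H3K4me3 peaks at protein-coding promoters of mouse gastrocnemius numbered 2201 of the 41955 peaks in the list replicated between both pools of tissue. They were chosen by their signal value, the height that the authors gave each peak. A member lay on an autosome, had a signal value under 10 and lay within 1000 bp of an annotated transcription start site (TSS) of a protein-coding gene in GENCODE M21. It was kept where no peak of 10 or more, called strong here, lay within 5000 bp of that TSS. Of 23014 weak autosomal peaks, 3349 met the distance rule, and 1148 of these were set aside because of a strong peak nearby. The 2201 members belonged to 1813 of 20807 autosomal protein-coding genes, which is 8.71%. Of the 1813 genes, 982 (4.72% of all genes) had weak promoter peaks only, and the other 831 had a strong peak at another TSS.

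The tissue was the gastrocnemius, the large calf muscle, of adult female B6CASTF1/J mice aged 2 months, first-generation hybrids of the laboratory strain C57BL/6J and the wild-derived strain CAST/EiJ. No treatment was named, and every library shared this genotype, sex, age and tissue. Chromatin immunoprecipitation sequencing (ChIP-seq) with an antibody to H3K4me3 gave 4 libraries, 2 from pool E (biological replicate 1) and 2 from pool F (biological replicate 2). Each pool joined 2 muscle biosamples, so values of single animals were not measured, and the deposited lists hold 1 value per pool and none per library. With 1 condition there was no contrast to test, and all comparisons below are descriptions of deposited peaks.

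H3K4me3 is trimethylation of lysine 4 on histone H3, placed around the start of transcribed genes by SET1 and MLL complexes. These complexes carry or recruit subunits that bind unmethylated CpG dinucleotides, so promoters in CpG islands often hold broad, high peaks even at low transcription, while CpG-poor promoters depend more on transcription factors and active transcription. Whole muscle is a mixture: fibre nuclei make up most of it, and endothelial cells, fibroblasts, resident macrophages, satellite cells, Schwann cells and blood cells add smaller shares. In such bulk tissue a mark on few cells and a low mark on many cells cannot be told apart. The CAST and C57BL/6J alleles were not separated.

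The defining muscle promoters carried strong peaks, as the tissue label says. The muscle creatine kinase gene Ckm stood at 53.1, the fast myosin light chain gene Mylpf at 58.8 and the skeletal actin gene Acta1 at 43.04 in the replicated list. All 15 housekeeping genes of a reference list had strong promoter peaks and none was a member. Strong promoter peaks numbered 13443, a median of 2268 bp wide with a median signal of 45.0. Each list was scored on its own, so a value is read within its list. The signal value was higher in the pool E list than in the pool F list at 91.0% of strong promoter peaks and at 82.1% of the members found in both, an offset of the lists that moves with every pool value given below.

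Promoters under weak peaks differed in CpG content, as 4 sequences show, under peaks with signal values of 5.83 (Mrc1), 6.88 (Laptm5), 9.98 (Myh1) and 7.82 (Gad2). The 4 stretches run from 250 bases before to 50 bases after the RefSeq start (RefSeq, GRCm38.p6, the same coordinates as mm10), 5′ to 3′ on the coding strand, with CpG dinucleotides in capitals. Among genes whose entry was in the table used and whose weak peak covered that RefSeq start, those with the highest signal value are shown for macrophages (Mrc1, the mannose receptor), leukocytes in general (Laptm5, a lysosomal membrane protein), muscle fibres (Myh1, the IIX myosin heavy chain) and neurons (Gad2, an enzyme of GABA synthesis).
Mrc1 promoter, chr2:14229164-14229463, forward strand: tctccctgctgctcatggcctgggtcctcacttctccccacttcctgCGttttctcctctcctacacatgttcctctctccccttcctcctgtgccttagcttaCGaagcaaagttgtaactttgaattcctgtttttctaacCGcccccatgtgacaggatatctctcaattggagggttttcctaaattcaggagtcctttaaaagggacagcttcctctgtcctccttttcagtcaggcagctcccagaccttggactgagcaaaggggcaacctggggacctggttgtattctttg
Laptm5 promoter, chr4:130913066-130913365, forward strand: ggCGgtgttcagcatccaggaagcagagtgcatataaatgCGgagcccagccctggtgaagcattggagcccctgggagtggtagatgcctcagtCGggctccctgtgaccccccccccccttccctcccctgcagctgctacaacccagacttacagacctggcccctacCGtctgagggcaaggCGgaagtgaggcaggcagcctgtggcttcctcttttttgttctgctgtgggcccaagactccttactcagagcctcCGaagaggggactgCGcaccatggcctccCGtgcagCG
Myh1 promoter, chr11:67199852-67200151, forward strand: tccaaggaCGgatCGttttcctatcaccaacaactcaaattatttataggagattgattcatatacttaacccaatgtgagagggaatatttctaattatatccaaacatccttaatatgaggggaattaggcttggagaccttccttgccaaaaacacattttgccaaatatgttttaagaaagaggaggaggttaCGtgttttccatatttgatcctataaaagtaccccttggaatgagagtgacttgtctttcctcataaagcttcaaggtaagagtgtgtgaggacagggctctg
Gad2 promoter, chr2:22622077-22622376, forward strand: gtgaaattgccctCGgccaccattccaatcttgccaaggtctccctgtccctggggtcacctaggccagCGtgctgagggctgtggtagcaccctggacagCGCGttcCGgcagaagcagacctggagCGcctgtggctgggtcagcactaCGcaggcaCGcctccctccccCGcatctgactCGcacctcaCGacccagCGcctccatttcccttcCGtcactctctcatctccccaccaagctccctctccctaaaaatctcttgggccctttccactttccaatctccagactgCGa

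The Mrc1 and Myh1 stretches each held 3 CpG dinucleotides, that of Laptm5 9 and that of Gad2 14. RefSeq promoter entries lay within 1000 bp of a weak peak, with no strong peak within 5000 bp, for 782 of the 1813 genes (889 entries). Their median was 7 CpG dinucleotides, against 22 over 12235 strong promoters and 14 over all 19174 autosomal coding promoters. Among 25 entries of macrophage and leukocyte genes the median was 4, and among 15 entries of neuronal and developmental factor genes it was 16. The leukocyte promoters were thus CpG-poor and the neuronal ones were not, although both carried weak peaks.

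Short motifs were counted on both strands of these 300-base stretches. GGAAGT, a core bound by ETS factors such as PU.1, was present in 18 of the 25 macrophage and leukocyte entries (72.0%), in 2 of the 15 neuronal and developmental factor entries (13.3%), in 22.4% of the entries of genes with weak peaks only and in 25.3% of all promoters. In Laptm5 it began 63 bases before the start, and in Mrc1 it lay on the reverse strand, 211 bases before the start. The TATA box letters TATAAA occurred in 4 of 10 entries of fibre and developmental muscle genes (40.0%) and in 12.1% of all promoters. In Myh1 it began 32 bases before the start on the forward strand, and a further match lay on the reverse strand 208 bases before it. GGGCGG, a GC box, was present in 38.9% of the weak entries, 67.1% of the strong ones and 48.3% of all. An E-box spelled CAGCTG occurred in 21.7% of the weak entries and 15.8% of all promoters. The M-CAT core CATTCC, bound by TEAD factors, occurred in 15.2 and 13.3% of these. An AP-1 site spelled TGACTCA occurred in 5.74 and 4.66%, and the GATA core GATAAG in 4.84 and 6.67%. Matches of different motifs were counted separately, whether or not they overlapped, and a match describes letters, not binding.

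The threshold of 10 divided a continuous range. Just inside it lay Eif4enif1 (9.99), a translational repressor, Myh1 (9.98), and at 9.94 Ttyh1, a membrane channel protein, Fam110c, C130050O18Rik and the presynaptic scaffold gene Bsn. Just outside it, 6 promoters all stood at 10.02, those of Mettl21c, a muscle lysine methyltransferase, the homeobox gene Mixl1, the RNA editing gene Adarb1, the synaptic vesicle gene Syt1, D830030K20Rik and the sodium channel gene Scn8a. Taking each gene by its highest weak peak, the lowest genes were Fnip2 (1.98), Cep112 (1.99), the dynein gene Dnah17 (2.14), the transcription factor gene Nfib (2.14), Ly6k (2.18) and the B cell and macrophage receptor gene Cd180 (2.18). Fnip2, Cep112 and Nfib were among the genes with a strong peak elsewhere.

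Over all members the signal value had a median of 4.94 (interquartile range 3.65 to 6.69, lowest 1.64) and the width a median of 626 bp (402 to 960 bp, widest 7545 bp). Weak autosomal peaks outside the members had medians of 4.12 and 496 bp. The −log10 q-value of the members had a median of 9.10, and 20 of the 2201 (0.909%) had a q-value above 0.05.

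Both pools held most members. In pool E 1951 members (88.6%) were overlapped by at least 1 bp, in pool F 1899 (86.3%) and in both 1758 (79.9%, 95% Wilson interval 78.1 to 81.5%, which covers counting error only). Over all autosomal replicated peaks the shares were 91.2, 88.3 and 83.7%, over the other weak peaks 70.03% were in both, and over the strong promoter peaks 100% were. Support followed the signal value. Of the 258 members under 3, 29.5% were in both pools, of the 480 from 3 to under 4 57.5%, of the 693 from 4 to under 6 91.8%, and of the 770 from 6 to under 10 100%. The replicated list was made from the same reads, so this is no independent check. Each pool value given here is the highest of all peaks of that pool that overlap the member. This can raise it against the replicated value, and the lists need not share a scale. A member's peak could exceed 10 in a single pool: 233 members overlapped a peak of 10 or more in pool E, 30 in pool F and 15 in both. Of 1515 genes whose highest weak peak was found in both pools, 368 (24.3%) had a replicated value below both pools' values, as Mfap5, Ptprc, C1qb and Higd1b below, and 53 (3.498%) one above both. How the authors derived the replicated value, which defines weak here, is not stated, so the class of such genes is less certain.

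**Figure D1:**
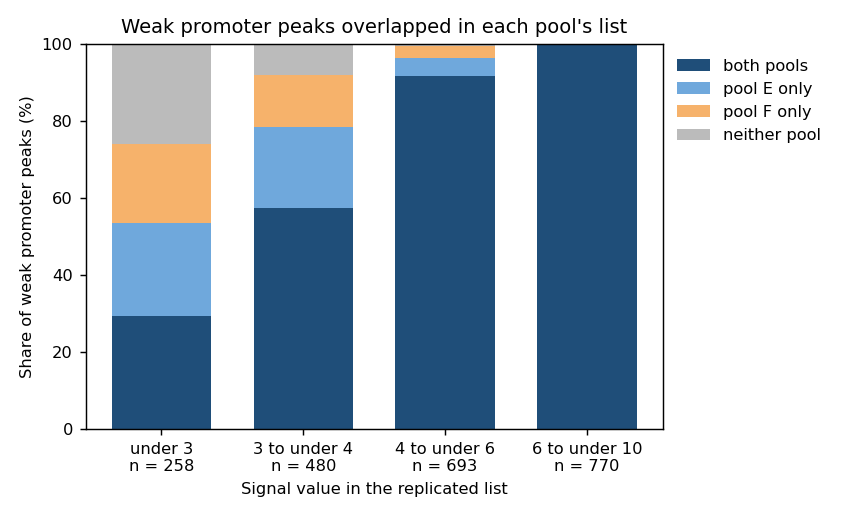
Share of weak promoter peaks (y axis, percent) overlapped by a peak in both pools' lists, in 1 list only or in neither, by signal value class in the replicated list (x axis, with the number of peaks). The share in both pools was 29.5% under 3 and 100% from 6 to under 10.

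Among members seen in 1 pool only, 193 were in pool E and 141 in pool F, and 109 had no overlapping peak in either pool's list. Median signal values in the replicated list were 3.33, 3.27 and 2.89 in that order, and median widths 353, 307 and 269 bp, so these were the lowest and narrowest members. The co-stimulatory receptor gene Cd86 had 5.07 in the replicated list and 5.51 in pool F, with no pool E peak. Also without a pool E peak were Dgka (5.64), a lipid kinase gene, Hist1h4n (5.07), a histone gene, D630023F18Rik (5.07) and Amt (4.98), a gene of glycine cleavage. Without a pool F peak were Slc4a9 (5.26), an anion exchanger gene, Tmcc1 (5.26), 4930590J08Rik (5.04), Morn3 (4.95) and Edem1 (4.77), a gene of protein degradation in the endoplasmic reticulum. In neither pool's list were Gm13288 (5.74), Asgr1 (4.03), a hepatocyte receptor gene, Inhbe (3.76), an activin subunit gene, Sec24d (3.65), Cpne9 (3.65) and Naip5 (3.55), an inflammasome gene. No macrophage gene of the list described below was among these single-pool members.

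Weak peaks covered a TSS less often than strong ones, which were wider and so reached one more easily. Of the members, 1275 (57.9%, 95% Wilson interval 55.9 to 59.98%) covered an annotated TSS, 619 (28.1%) lay wholly downstream and 307 (13.9%) wholly upstream. Of strong promoter peaks 97.0% covered a TSS. Among members that did not, the gap had a median of 273.5 bp. The centre of the members lay a median of 138 bp downstream of the TSS (interquartile range -75 to 421 bp), against 204.5 bp for the strong peaks, which were wider. By class of signal value, the share that covered a TSS was 34.5% under 3, 39.6% from 3, 60.03% from 4 and 75.3% from 6. The centre lay in an exon of the gene in 38.2%, in an intron in 52.9% and outside the gene in 8.91%. In 71.6% the TSS nearby belonged to a protein-coding transcript, and in the others to a non-coding transcript of a coding gene. The nearest strong peak was a median of 26403 bp away.

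The TSSs at members were CpG-poor. In windows of 1000 bp, 1716 of the 2201 members (78.0%) stood at a TSS of the low CpG class, with an observed over expected CpG ratio under 0.48, against 17.5% of strong promoter peaks and 53.0% of all distinct coding TSSs. The median ratio was 0.316 at members, 0.718 at strong peaks and 0.429 at all TSSs. The 86 members at high CpG TSSs had a median signal value of 6.55 and covered the TSS in 75.6%. The 1716 at low CpG TSSs had a median of 4.60 and covered it in 52.4%.

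Genes were also classed by all of their TSSs, where any TSS outside the low class keeps a gene out of it. Of the 982 genes with weak promoter peaks only, 61.5% were low CpG genes, against 37.6% of all autosomal coding genes and 9.81% of genes with a strong promoter. Of the 831 genes with a strong peak elsewhere 7.70% were, so over all 1813 the share, 36.8%, was near that of all genes. Strong TSSs are mostly outside the low class, so the difference between 61.5 and 7.70% follows in part from the definition. At the TSS of the highest weak peak the order was the other way. There 743 of the 831 genes stood at a low CpG TSS (median ratio 0.285), and 638 of the 982 genes with weak peaks only (0.387). Genes with weak peaks only had a median signal value of 5.83, were in both pools in 87.7% and covered a TSS in 73.1%. In genes with a strong peak elsewhere these values were 4.77, 78.7% and 59.0%, and the weak TSS lay downstream of the strong one in 85.8%, a median of 28999 bp away. In 419 of these 831 genes (50.4%) the weak TSS was that of a protein-coding transcript, against 933 of the 982 genes with weak peaks only (95.01%). With starts of protein-coding transcripts alone there were 1352 member genes, of which 70.6% had weak peaks only, in place of 54.2%.

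Cell lineages differed in how often weak peaks were their only promoter mark. Of 26 gene lists, the macrophage and monocyte list and the pan-leukocyte signalling list had the largest shares of genes with weak promoter peaks only, 16 of 28 (57.1%) and 19 of 34 (55.9%), beside 4.72% of all genes. Schwann cell and glia genes followed with 6 of 18 (33.3%), neuron and synapse genes with 9 of 34 (26.5%) and fast and slow fibre genes with 6 of 25 (24.0%). No hepatocyte, endothelial, erythroid and megakaryocyte or housekeeping gene of these lists had weak peaks only. Over all 20807 autosomal coding genes, 12660 had strong promoter peaks only and 6239 had no peak within 1000 bp of a TSS. These counts are descriptions, since lists and members were chosen with results known.

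**Figure D2:**
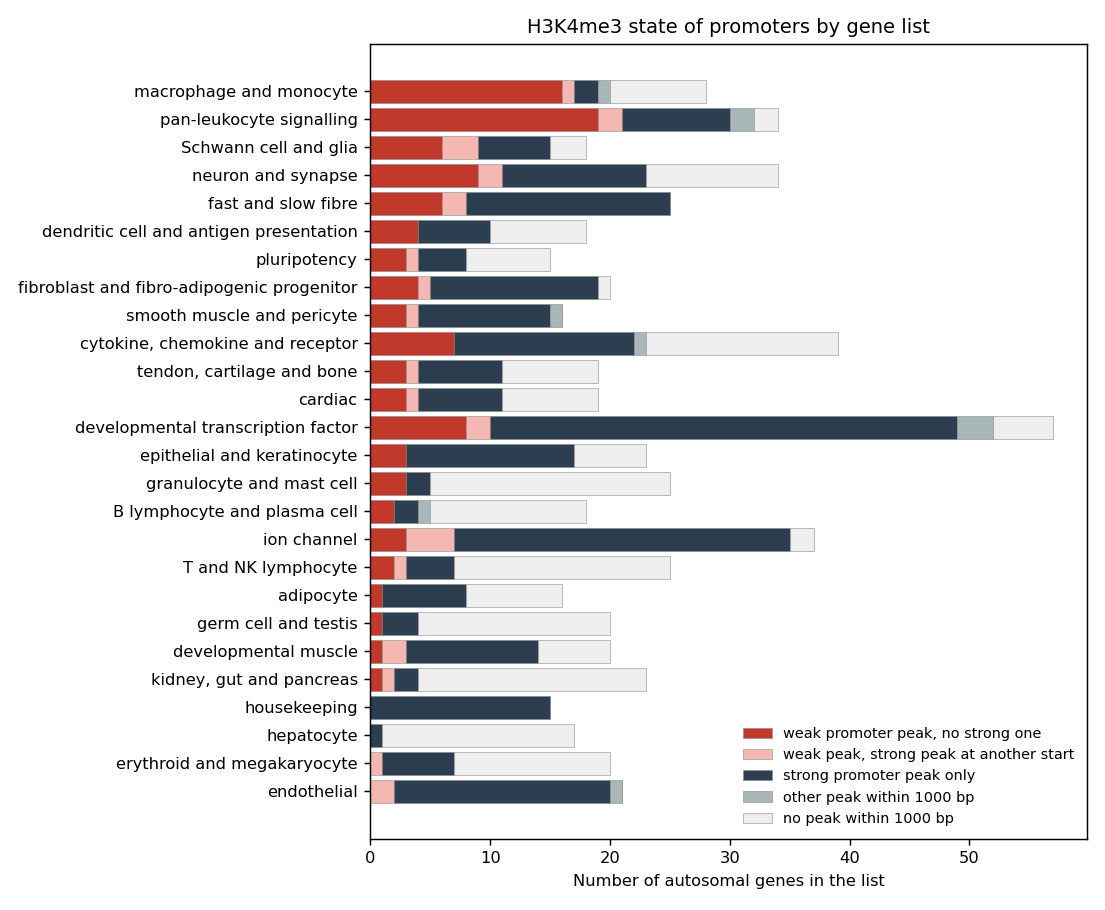
Number of autosomal genes (x axis) in each gene list (y axis), by promoter state: weak promoter peak and no strong one, weak peak with a strong peak at another start, strong promoter peak only, another weak peak within 1000 bp that was set aside for a strong neighbour, and no peak within 1000 bp. Macrophage and leukocyte lists have the longest weak segments, 16 and 19 genes, and hepatocyte genes are nearly all without a peak.

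Macrophage and monocyte genes had the largest share of members with weak peaks only. Of 28 listed genes 17 were members, 2 (Cd14 and Mertk) had strong promoter peaks only, Cd68 had a weak peak set aside for a strong neighbour, and 8 had no peak, which here means none within 1000 bp of a TSS. All 17 members were overlapped in both pools and all 17 stood at low CpG TSSs, with a median ratio of 0.187. Of all 1813 member genes, 1515 were in both pools and 1381 stood at low CpG TSSs, with a median ratio of 0.326. Their signal values ran from 2.62 to 8.02 with a median of 5.55, close to the 5.45 of all member genes, while their median width was 1022 bp against 673 bp.

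Csf1r, the receptor for the growth factor of macrophages, had the highest value of the list, 8.02 in the replicated list, 6.21 in pool E and 8.75 in pool F. C1qc, a chain of complement component C1q made by tissue macrophages, had 7.16, with 8.13 in pool E and 7.22 in pool F, at chr4:136889853-136892885. Cd163, the haemoglobin scavenger receptor of resident macrophages, had 6.40, with 7.28 and 5.22. Tyrobp, the DAP12 signalling adaptor, had 6.31, with 7.28 in pool E and 6.19 in pool F. The order of the pools was not fixed: pool E had the higher value at 11 of the 17 genes, and pool F at Csf1r and C1qc's neighbour C1qa (4.13 in pool E, 6.23 in pool F), among others.

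Further members were Lyz2, lysozyme (6.02), Adgre1, the F4/80 antigen (6.02), Mrc1 (5.83), Pf4, a chemokine of platelets and macrophages (5.55), Aif1, a calcium-binding protein of macrophages (4.88), Siglec1, sialoadhesin (4.77), Lyve1, a hyaluronan receptor shared with lymphatic endothelium (4.43), the protease gene Ctss (3.92), Timd4, a phosphatidylserine receptor (3.36), and the Fc receptor gene Fcgr1 (2.62). The 3 C1q genes stood side by side with a peak each: C1qb (4.07) at chr4:136884515-136886103, C1qc, and C1qa (5.61) at chr4:136895383-136898732. Fcgr3 (4.89) was the list's member with a strong peak elsewhere, at 15.5. Without any peak were Cx3cr1 and Ccr2, chemokine receptors of monocytes, Trem2, Marco, Msr1, Mpeg1, Folr2 and Ms4a7.

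The macrophage peaks began at the TSS and ran into the gene. In 13 of the 17 genes the upstream edge of the peak lay within 100 bp of the TSS, on either side, against 23.1% of all member genes and 27.2% of genes with weak peaks only. The limit of 100 bp was chosen after the values were seen. The median upstream edge lay 17 bp downstream of the TSS and the median downstream edge 1265 bp, while over the 1813 member genes these were -204 and 469 bp. The centre lay in an intron in 17 of 17 genes and downstream of the TSS in 15, beside 907 and 1221 of all 1813 member genes. At Mrc1, whose promoter is printed above, the peak ran from 12 bp before to 2611 bp after the TSS, and at C1qa from 71 to 3420 bp after it. The other 4 were Siglec1 and Timd4, whose peaks began 477 and 456 bp downstream, Pf4, whose peak began at -425 bp and covered the TSS, and Fcgr3. The highest weak peak of Fcgr3 lay wholly upstream, and its other weak peak covered a TSS.

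**Figure D3:**
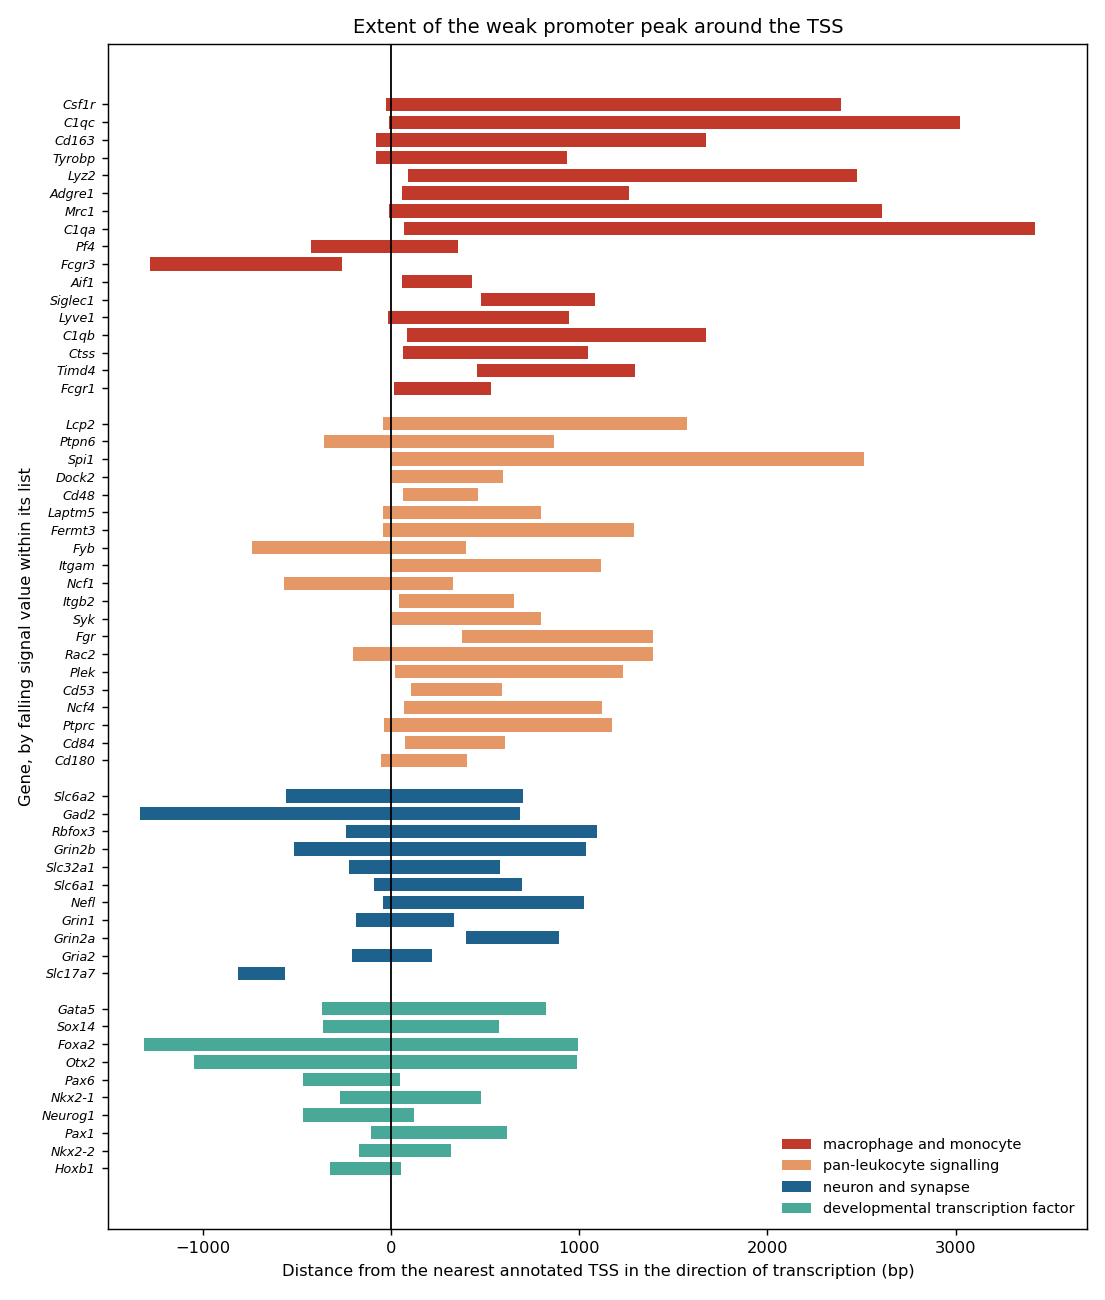
Extent of the highest weak promoter peak of each gene (bars) as distance from the nearest annotated TSS in bp along the direction of transcription (x axis, vertical line at the TSS), for the genes of 4 lists (y axis), of which 1 leukocyte gene is not drawn. Most macrophage and leukocyte bars begin near the line and extend to its right, with median downstream edges of 1265 and 868 bp, while the developmental factor bars cross it.

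Genes of the pan-leukocyte signalling list, not all of them shared by every leukocyte, had peaks of similar position. Of 34 listed genes 21 were members, 19 of them with weak peaks only, 9 had strong peaks only, 2 (Fcer1g and Vav1) had weak peaks set aside, and Itgal and Cd52 had none. Signal values ran from 2.18 to 9.16 with a median of 5.64, and 19 of 21 were in both pools, beside 1515 of all 1813 member genes. All 21 stood at low CpG TSSs (median ratio 0.252), and 15 of 21 peaks began within 100 bp of the TSS, beside 1381 and 419 of the 1813.

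Lcp2, the SLP-76 adaptor, had 9.16, with 10.7 in pool E and 8.92 in pool F. Ptpn6, the phosphatase SHP-1, had 8.97, with 11.1 and 7.90. Spi1, which encodes the ETS factor PU.1, had 8.69, with 9.84 in pool E and 8.24 in pool F, and its peak ran from 2 bp before to 2515 bp after the TSS at chr2:91096778-91099295. In these 3 genes pool E had the higher value, as in 18 of the 19 genes seen in both pools. Dock2, an activator of the GTPase Rac in leukocytes, had 8.59, with 9.84 and 7.56. The low end held Ptprc, the pan-leukocyte antigen CD45, at 3.05 (5.78 in pool E and 4.40 in pool F), and Cd84 (2.38) and Cd180 (2.18), whose peaks were found in pool E and not in pool F. The NADPH oxidase subunit genes Ncf1 (5.83) and Ncf4 (3.74), and the integrin genes Itgam (6.02) and Itgb2 (5.45) lay between these values. The kinase gene Syk (4.88) and the platelet substrate gene Plek (4.12) had strong peaks at another TSS, at 29.5 and 45.1.

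Most listed genes of T and natural killer cells, B cells, granulocytes and mast cells, and erythroid cells and megakaryocytes had no peak. Members made up 12, 11.1, 12 and 5% of these lists in that order, beside 8.71% of all genes. Over all 20807 autosomal coding genes, 6239 had no peak. Of 25 T and natural killer cell genes 18 had no peak, among them Cd3e, Cd4 and Cd8a, and 3 were members: the co-stimulatory receptor gene Cd28 (9.06, with 12.8 in pool E and 9.68 in pool F), whose peak lay 154 bp upstream of the TSS, Gata3 (4.43) and the adhesion gene Cd2 (3.08, pool E only). For Cd28 and Cd2, as for Hdc, Vwf, Il2ra, Tnni3, Fcgr3, Flt1, Pax6 and Nkx2-2 in the other lists, that TSS belonged to a non-coding transcript of the gene. Of 18 B cell and plasma cell genes 13 had no peak, and the members were the complement receptor gene Cr2 (4.43) and Cd79b (3.17), a chain of the B cell receptor found in neither pool's list. Of 25 granulocyte and mast cell genes 20 had no peak, including the calprotectin genes S100a8 and S100a9 and the granule elastase gene Elane, and its 3 members Hdc (4.35), Mmp9 (3.46) and Csf3r (2.98) were each found in 1 pool only. All 4 adult globin genes were without a peak, and the von Willebrand factor gene Vwf (9.07), shared by megakaryocytes and endothelium, was the single erythroid and megakaryocyte member, with a strong peak of 12.3 at another TSS.

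Among 18 dendritic cell and antigen presentation genes 4 were members. Ciita, the master regulator of MHC class II genes, stood highest at 9.73, with 10.3 in pool E and 10.1 in pool F, and covered its TSS. Flt3, a growth factor receptor of dendritic cell precursors, and Cd86 both had 5.07, and Cd80 3.74. Of the class II genes, H2-Ab1, H2-Eb1 and H2-DMa had strong peaks only, and H2-Aa and H2-DMb1 none. Cd74, the invariant chain gene, had none. Of 39 cytokine, chemokine and receptor genes 7 were members, all with weak peaks only and low CpG TSSs: Il6, the interleukin 6 gene (7.57, with 8.75 and 7.73 in pools E and F), and the chemokine genes Ccl24 (6.78), Cxcl2 (6.499), Ccl6 (5.45), Ccl9 (3.84) and Ccl7 (3.17), with the receptor gene Il2ra (4.31). The highest peaks of Ccl24, Ccl6, Ccl9, Ccl7 and Il2ra lay wholly downstream of the TSS, and Ccl7 was found in pool F only. Of all 1813 member genes, 982 had weak peaks only and 1381 stood at low CpG TSSs.

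**Figure D4:**
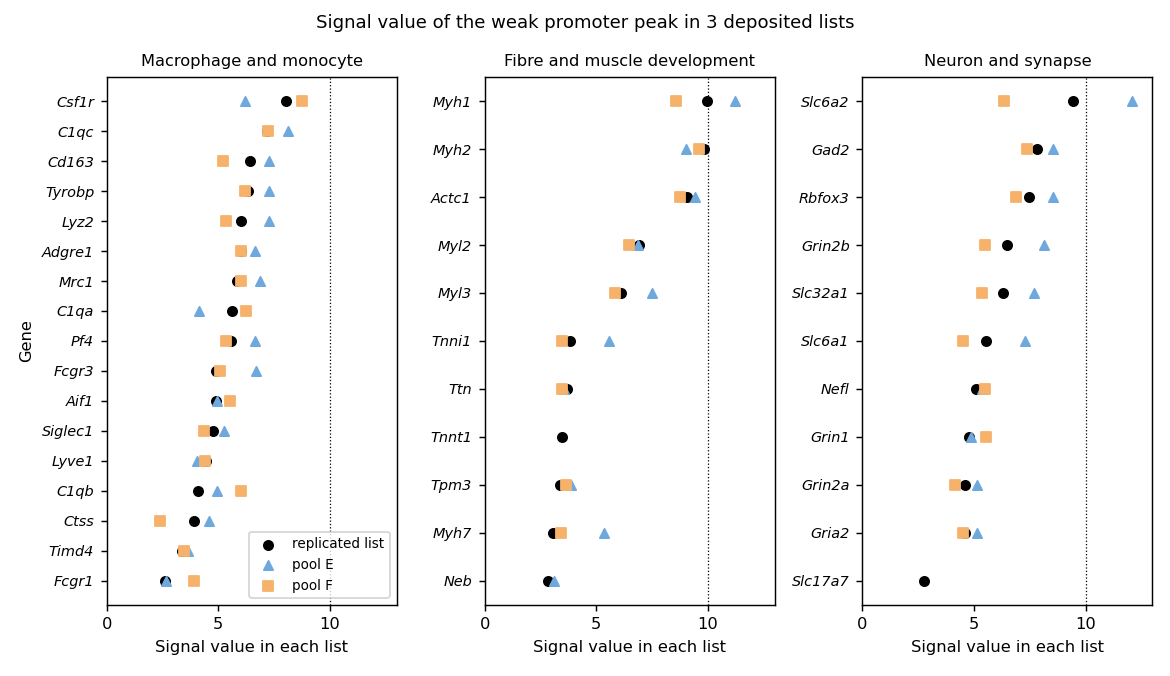
Signal value (x axis, on the scale of each list) of the weak promoter peak in the replicated list (circles), pool E (triangles) and pool F (squares), for genes (y axis) of the macrophage, fibre with developmental muscle, and neuron lists. A dotted line marks 10, and a gene with no triangle or square has no overlapping peak in that pool, as Tnnt1 and Slc17a7.

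All 25 fast and slow fibre genes had a promoter peak, and 17 of them had strong peaks only. These 17 held fast genes, such as Mylpf and the fast calcium pump gene Atp2a1 (46.6), and slow ones, such as the slow troponin C gene Tnnc1, the slow calcium pump gene Atp2a2, the calsequestrin gene Casq2, the slow-type myosin gene Myh7b and the myoglobin gene Mb. Myosin heavy chain genes set the order: Myh4, the IIB chain that is the main fast myosin of mouse limb muscle, stood at 23.2 in the replicated list, Myh1 (IIX) at 9.98, Myh2 (IIA) at 9.83 and Myh7 (slow, type I) at 3.06. In pool E the values were 27.0, 11.2, 9.01 and 5.36, and in pool F 21.2, 8.59, 9.61 and 3.41. Myh4 was above and Myh7 below the other chains in both pools, while Myh1 and Myh2 changed places between the pools and were not separated. The Myh1 peak, 3380 bp at chr11:67200081-67203460, ran to 3056 bp after the TSS, and that of Myh2 spanned 5206 bp.

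The slow troponin I and T genes were members, while that of slow troponin C was not. Tnni1, slow troponin I, had 3.84, with 5.57 in pool E and 3.46 in pool F, and Tnnt1, slow troponin T, had 3.46 with no overlapping peak in either pool's list. Myl2, the slow and ventricular myosin light chain, had 6.91, with 6.89 and 6.46. Myl3 (6.12), another slow light chain, and Tpm3 (3.36), slow tropomyosin, had strong peaks of 36.9 and 50.6 at another TSS. The weak start lay downstream of the strong one in Myl3 and upstream of it in Tpm3. In both genes a weak start belonged to a protein-coding transcript, so the strong peak need not mark the start used in slow fibres. All 8 member genes of the list stood at low CpG TSSs, and 7 had a weak peak that covered a TSS, beside 1381 and 1208 of all 1813 member genes.

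Among 20 developmental muscle genes, Actc1, the cardiac actin that precedes skeletal actin in development, was the only one with weak peaks only, at 9.07 (9.41 in pool E, 8.75 in pool F) over 2193 bp. Ttn, titin (3.67), and Neb, nebulin (2.85, pool E only), had weak peaks beside strong ones of 40.0 and 25.5, with the weak start downstream of the strong one in Ttn and upstream of it in Neb. Of 19 cardiac genes 4 were members: Gja5, connexin 40 (8.02, strong elsewhere), the transcription factor gene Tbx20 (6.97), Tnni3, cardiac troponin I (6.12), and Pln, the calcium pump regulator phospholamban (3.22). Scn4a, the voltage-gated sodium channel of skeletal muscle, also had weak peaks only, with 8.97 in the replicated list, 11.98 in pool E and 6.88 in pool F at the highest of its 3, which lay 889 bp upstream of the TSS.

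Of 20 fibroblast and fibro-adipogenic progenitor genes 14 had strong peaks only and 4 weak peaks only. Mfap5, a microfibril protein, had 8.76 in the replicated list and 18.04 and 16.6 in pools E and F, above 10 in both pools. Lum, the collagen-binding proteoglycan lumican, had 7.72 (11.9 and 9.44) over 6102 bp, beginning 154 bp downstream of the TSS. Apod, a lipocalin, had 6.497 (6.36 and 5.83), and Postn, the matrix protein periostin, 4.64 (6.18 and 3.79). The list's median width was 2448 bp, against 673 bp over all member genes.

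In smooth muscle and pericytes, Acta2, smooth muscle actin, had 9.33 (11.9 in pool E, 7.70 in pool F) over 3600 bp, Tagln, the actin-binding transgelin, 6.09 (7.14 and 7.90) over 3120 bp and Higd1b, a pericyte marker, 3.89 (6.85 and 4.70), while 11 of 16 genes were strong only. Of 19 tendon, cartilage and bone genes 7 were strong only and 8 had no peak, and the proteoglycan genes Fmod (8.88), Acan (6.31) and Kera (2.46) had weak peaks only. No endothelial gene had: 18 of 21 were strong only, and Flt1 (5.53) and Pecam1 (3.93) had weak peaks at another TSS than their strong ones of 38.6 and 25.5. The Pecam1 peak lay 570 bp upstream of its TSS, with its centre outside the gene, and also lay near a start of another coding gene. The brown fat uncoupling gene Ucp1 (3.93) was the only member of 16 adipocyte genes, of which 7 were strong only and 8 had no peak.

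Schwann cell and glia genes numbered 9 members of 18. Sox10, the lineage's transcription factor, had 6.69 (8.13 in pool E, 7.56 in pool F), S100b, a calcium-binding protein, 6.40 (7.07 and 6.02), and Olig2, a factor of oligodendrocytes, 8.11 (9.20 and 7.90). The myelin genes Mbp (4.31) and Prx (3.65) had strong peaks at another TSS. Cdh19 (2.79) was found in pool E only, and the myelin gene Mag (2.40) in neither pool's list.

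Neuronal genes formed a different kind of member. Of 34 listed, 11 were members and 9 had weak peaks only, 12 were strong only and 11 had no peak. Slc6a2, the noradrenaline transporter of sympathetic nerves, had 9.45, with 12.1 in pool E and 6.36 in pool F. Gad2 had 7.82 (8.53 and 7.39) at chr2:22621973-22623990, Rbfox3, the NeuN antigen, 7.45 (8.56 and 6.88) and Grin2b, an NMDA receptor subunit, 6.499 (8.13 and 5.51). Only 1 of the 11 stood at a low CpG TSS, the median ratio was 0.672, and 9 had a weak peak that covered a TSS. Of all 1813 member genes, 1381 stood at a low CpG TSS and 1208 had a weak peak that covered a TSS. In 2 of 11 did the peak begin within 100 bp of the TSS, and the median edges were -224 and 697 bp. The centre lay downstream of the TSS in 9 of 11, beside 1221 of all 1813 member genes. The cell bodies of these neurons lie outside muscle, and which cells carried the mark was not measured.

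Developmental transcription factor genes shared these features. Of 57 listed, 39 were strong only and 10 were members, 8 with weak peaks only. Gata5, a factor of heart and gut, had 8.98 (8.72 in pool E, 9.44 in pool F), Sox14, a neural factor, 8.30 (10.3 and 7.90), Foxa2, a factor of endoderm, 7.43 (10.7 and 7.42) and Otx2, of the forebrain, 7.35 (8.77 and 6.88). Pax6 (6.12) and Nkx2-2 (4.60) had strong peaks elsewhere, and Nkx2-1 (6.02), Neurog1 (5.83), Pax1 (5.55) and Hoxb1 (3.84) completed the group. All 10 had a weak peak that covered a TSS, 0 stood at a low CpG TSS, the median ratio was 0.651, and in 0 did the peak begin within 100 bp of the TSS. The centre lay downstream of the TSS in 5 of 10, against 9 of 11 neuronal and 15 of 17 macrophage genes, and 1221 of all 1813 member genes. Of these 1813, 1208 had a weak peak that covered a TSS and 1381 stood at a low CpG TSS.

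**Figure D5:**
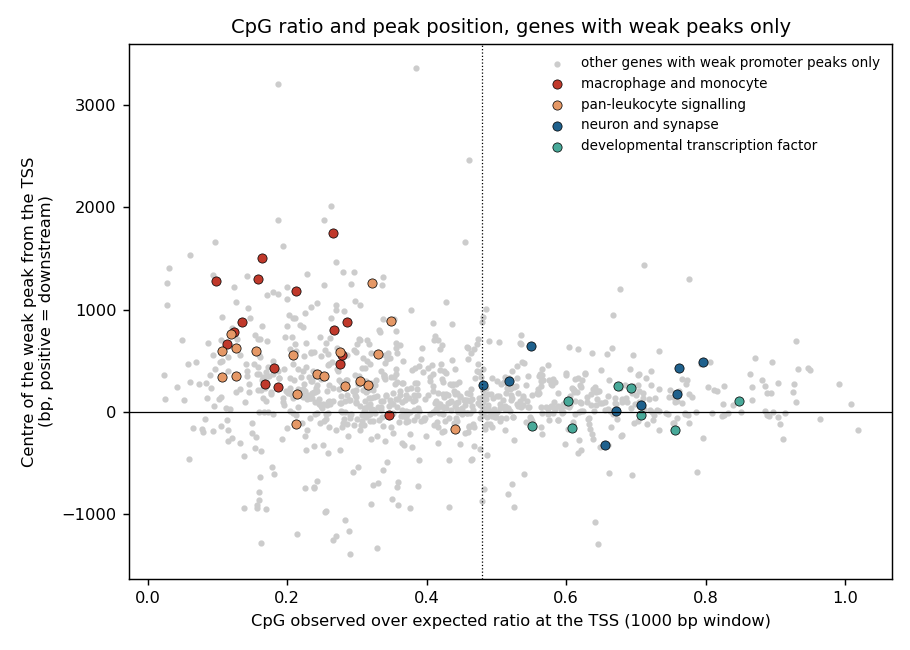
CpG observed over expected ratio in the 1000 bp window at the TSS (x axis, dotted line at 0.48) and centre of the weak peak from the TSS in bp, positive downstream (y axis), for genes with weak promoter peaks only. Macrophage and leukocyte genes lie left of the line and mostly above 0. Neuronal and developmental factor genes lie right of it, with 8 of 9 neuronal and 4 of 8 developmental factor centres above 0. Of all 982 genes with weak peaks only, 708 had a centre above 0.

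Lists of tissues other than muscle differed in their share of members, beside the 8.71% of all genes. Of all 20807 autosomal coding genes, 6239 had no peak. Of 17 hepatocyte genes 16, albumin (Alb) included, had no peak and 0 were members. Of 23 kidney, gut and pancreas genes 19 had none, and Nphs1 (6.21) and the pancreatic factor gene Pdx1 (4.60) were members (8.70%). Of 20 germ cell genes 16 had none, and Dppa3 (6.31), a maternal factor, was a member. Of 15 pluripotency genes 7 had none and 4 were members (26.7%): Esrrb (9.54, strong elsewhere), the growth factor gene Fgf4 (4.79), Prdm14 (4.60) and the RNA-binding protein gene Lin28a (3.14). Of 23 epithelial and keratinocyte genes 14 were strong only, 6 had no peak and 3 were members (13.04%), the ETS factor gene Elf3 (9.20, with 13.3 and 10.1 in pools E and F) and the keratin genes Krt18 (6.78) and Krt19 (4.98).

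Among 16 gene families, protocadherins had the largest share of members. These cadherins are chosen from clustered promoters in single neurons, and 25 of 67 were members, all with weak peaks only. Signal values ran from 3.30 to 9.73 with a median of 6.12, and 24 of 25 were in both pools, beside 1515 of all 1813 member genes. Pcdha8 had 9.73, with 11.98 in pool E and 7.73 in pool F, Pcdhb14 9.68 (11.98 and 9.86) and Pcdh15, outside the clusters, 8.88 (9.63 and 9.44). The TSS at the Pcdh15 peak belonged to a non-coding transcript of the gene. The centre lay in an exon and downstream of the TSS in all 25, and in 17 of 25 the peak began within 100 bp of the TSS. Of all 1813 member genes, the centre lay in an exon in 734 and downstream in 1221, and 419 peaks began within 100 bp. Cluster members are similar in sequence, and how reads that fit several copies were placed is not given in the sources used here.

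Receptor families of myeloid cells were members at low values. Of 20 Fc receptor and Siglec genes 6 were, led by Fcgr2b, the inhibitory Fc receptor (4.89), Fcgr3 and Siglec1, and of 19 membrane-spanning 4-domains genes 5 were, led by Ms4a6b (5.17), Ms4a6d (4.50) and Ms4a6c (3.96). None of the Ms4a peaks covered a TSS, and all 5 lay downstream of it, while 1208 of all 1813 member genes had a peak that covered one. Clec10a (5.36), Clec4a3 (3.55) and Clec4a2 (3.46) led 4 lectin receptors of 56 (7.14%, below the 8.71% of all genes). Among 97 CD antigen symbols 18 were members, with the B cell co-receptor gene Cd72 at 9.07 and the adhesion gene Cd48 at 7.07.

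Shares in other families stood above, near or below the 8.71% of all genes. Of 131 potassium, sodium and calcium channel genes 28 were members (21.4%), led by Kcnh5 (9.83), Cacnb2 (9.16) and Cacna2d4 (9.07). A weak peak covered a TSS in 26 of the 28, beside 1208 of all 1813 member genes. Of 116 G protein-coupled receptor symbols 24 were (20.7%), led by Gpr35 (9.23), Gpr182 (8.74), an endothelial receptor, and Gpr83 (8.42). Of 358 solute carriers 34 were members (9.50%, near the share of all genes), led by Slc44a3 (9.68), Slc6a2 and the urea transporter gene Slc14a1 (8.997), and of 43 collagens 10 were (23.3%), led by Col9a2 (9.94), Col6a6 (9.64) and Col8a2 (9.20). Cytochromes P450 gave 7 of 100 (7.0%), with the vitamin D hydroxylase gene Cyp27b1 at 8.02, Cyp4f37 at 7.73 and Cyp4f39 at 6.94. Interleukin and chemokine symbols gave 12 of 131 (9.16%), with Il12a at 8.07, and keratins 6 of 110 (5.45%), with Krt79 at 6.21. At Cacna2d4, Cyp4f37 and Krt79 the TSS belonged to a non-coding transcript of the gene. Only 8 of 385 Zfp genes were members, led by Zfp955a (9.73), Zfp385c (8.69) and Zfp991 (7.92), and 335 were strong only. Of 1128 olfactory receptor genes 2 were members, and of 365 vomeronasal and taste receptor genes 0.

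Several genes carried more than 1 weak peak. Of the 1813 genes 338 (18.6%) did. Pxn, the focal adhesion protein paxillin, had 7, from 2.71 to 9.54, over starts 28949 bp apart, beside a strong peak of 34.2. Frmd4b (7.36 at its highest), the oxidase gene Ncf1, the nucleotidase gene Nt5c2 (8.30) and Synpo, an actin-binding protein (9.64), had 5 each. Of these Ncf1 had no strong peak. Frmd4a had 4, up to 6.02. The starts lay farthest apart in the synaptic scaffold gene Dlg2, with peaks of 5.26 and 6.07 at starts 1090075 bp apart and a strong peak of 56.8 elsewhere. Kcnip4 (925225 bp, highest 6.59), the acid-sensing channel gene Asic2 (815136 bp, 8.495), the phosphodiesterase gene Pde4d (640985 bp, 9.64), Etl4 (638242 bp, 5.07) and the catenin gene Ctnnd2 (473939 bp, 7.83) followed. Kcnip4, Asic2 and Ctnnd2 had no strong promoter peak.

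The widest member, 7545 bp with 9.47 in the replicated list and 11.7 and 16.3 in pools E and F, covered starts of Nfix, a factor that controls fetal muscle genes, and of Lyl1, a blood cell factor, so it cannot be given to either gene. Nfix also had a strong peak of 53.0. Next came Coq8a (6229 bp, 5.93), a gene of coenzyme Q synthesis, Afdn (6198 bp, 7.99), an adherens junction protein, Lum (6102 bp) and Trio (5586 bp, 9.75), a GTPase activator. Coq8a, Afdn and Trio had strong peaks elsewhere, of 42.9, 58.8 and 57.5, and Lum had none. In all, 40 members (1.82%) lay at starts of 2 or more coding genes and 162 (7.36%) also lay near the TSS of a non-coding gene, and the gene behind those peaks was not resolved. The highest weak peaks of Pecam1, Nphs1, Itgam, Gata3 and Cacna2d4 were among the 40.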

How the data were processed

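H3K4me3 was measured by ChIP-seq in 4 gastrocnemius libraries of 2 pools. The deposited narrowPeak lists are on mm10: 1 of replicated peaks, and 3 of pseudoreplicated peaks (pool E, pool F, merged pools), per the deposited text files. The signal value of each peak is the authors' own, its reference is not stated, and it served only to describe or filter peaks within a list. The deposited −log10 q-value per peak was used as given. For the aligner, peak caller and settings, nothing is given in the sources used here. Peak lists hold no read counts, so depth is unknown. Fragments spanned 200 to 600 bp, per the labels.

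Genes and starts came from GENCODE M21, CpG ratios from RefSeq GRCm38.p6, whose coordinates are those of mm10, and promoters from RefSeq. The rule for members is stated in the first paragraph of the results, and each gene was described by its weak peak with the highest signal value and the TSS nearest that peak. High CpG meant a ratio of 0.75 or more with 55% GC or more, and a low CpG gene had all windows under 0.48. Overlap with a pool needed 1 bp, and the pool value was the highest among the overlapping peaks of that pool. With 1 condition no test was run. Distance and overlap functions were tested on simulated intervals, and the CpG functions were not. Python 3.11.15, pandas 2.3.3 and numpy 2.4.6 were used.

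The members, the 26 gene lists (640 entries) and the 16 families were chosen with earlier results of these data known. Named genes were, by rule, up to 4 members per list and 3 per family with the highest signal value, 6 on either side of the threshold, the 6 lowest, the 6 widest, the 6 highest missing from a pool, and the 6 with most weak peaks or the widest spread of starts. Other genes named with their list were chosen after their values were seen. Alternatives were other windows, thresholds, guards, start sets, lists, overlaps and CpG windows, and leaving out each pool. Some genes counted in the lists are not reported here by name.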

Additional observations from a re-analysis of the deposited data

How the results depend on the processing

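The 2 pools, the lack of read counts and the single condition limit all values. No paired analysis was possible because the result comes from no test and the pools are the only replicates. No count or share reversed, since none has a direction. The share of member genes with weak peaks only, 54.2%, ran from 44.8% under a signal value of 5 to 70.6% with starts of protein-coding transcripts only. The share of members that covered a TSS, 57.9%, ran from 42.9% under a signal value of 5 to 63.4% with the threshold at 15. The window of 0 bp, which fixes that share at 100%, is left out of this range. With a TSS window of 0 bp there were 1275 members at 1208 genes, of which 92.4% were overlapped in pool E and 92.5% in pool F, and with 2500 bp the pool shares were 86.6 and 84.1%. Under a signal value of 5 there were 1127 members at 972 genes, with 33.7% low CpG genes and pool shares of 78.3 and 73.6%. With the threshold at 15 the pool shares were 91.2 and 89.2%. A guard of 1000 bp gave 33.8% low CpG genes, and a CpG window of 500 bp 30.7%. With starts of protein-coding transcripts only, 44.5% were low CpG genes and 89.0% of members were in pool F. The pooled list gave 80.5% in pool F, and an overlap of at least 50% of the weak peak 82.8%. Leaving out a pool made the other pool's list the source of members: without replicate 2 77.9% of them were in pool F, and without replicate 1 92.3% were in pool E. Over both, members ranged from 1928 to 2159 and genes from 1597 to 1748.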

Other observations

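The X chromosome lies outside the rule. Under the same distances and thresholds it held 70 weak promoter peaks at 66 of 948 coding genes, 55 of them without a strong promoter peak. Leukocyte genes were present there too: Il2rg, the common chain of interleukin receptors, had 7.83, the leukotriene receptor gene Cysltr1 6.40, Was, an actin regulator of blood cells, 5.83, Cfp, the complement factor properdin, 3.93, Sash3 3.36 and the Toll-like receptor gene Tlr8 2.91. Of genes with brain functions, Syp, synaptophysin, had 6.45, Nlgn3, a neuroligin, 6.02, and Pou3f4, a neural transcription factor, 6.88. Tnmd, the tendon gene tenomodulin, had 3.67. These genes were chosen after their values were seen.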
